A study of Mus musculus with 6 samples.

Results

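The genes described here are the SR, hnRNP and SF3 splicing factors, in mouse melanoma cells in which the histone variants macroH2A1 or macroH2A2 had been targeted. Every gene was taken whose symbol begins with Srsf and a digit, with Hnrnp, or with Sf3a or Sf3b and a digit, and Qk and Rbfox2 were added as regulators named for the splicing of macroH2A1. The rule found 40 of the 18193 genes that the array names by a probe set with a single symbol: 10 SR genes, 19 hnRNP genes, 9 SF3 genes, Qk and Rbfox2. Each gene was represented by its brightest probe set, the one with the highest mean signal over all arrays.

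SR proteins bind exonic enhancer sequences and recruit the splicing machinery, whereas many hnRNP proteins bind pre-mRNA at silencer sequences and favour exon skipping. The SF3a and SF3b complexes are parts of the U2 small nuclear ribonucleoprotein and hold the intron branch site. Pre-mRNA of macroH2A1 contains a pair of mutually exclusive exons, and the RNA-binding protein Qk acts on the choice between them; Rbfox2 is a splicing regulator that binds near alternative exons.

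B16-F1 is an established melanoma line of the C57BL/6J mouse strain. Cells of all 3 groups carried a stably expressed lentiviral short hairpin RNA (shRNA): one against GFP, called the control here, one against macroH2A1, or one against macroH2A2. The labels name 2 biological replicates of each line, numbered 1 and 2, and do not say whether a line is a clone or a pool. Total RNA of the 6 samples was hybridised to 6 single-colour Affymetrix arrays. The deposited MAS5 signals, in linear array units, have a trimmed mean of 150.0 on each array, and the number of arrays limits the precision of every value.

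Macroh2a1 signal was 1212.7 and 1262.4 on the control arrays, 444.2 and 319.1 on the macroH2A1 shRNA arrays and 1271.2 and 1170.5 on the macroH2A2 shRNA arrays. The macroH2A1 shRNA arrays lay apart from the others, with a log2 difference from control of -1.67 ± 0.17 (SE; adjusted p = 0.123 without and 0.0012 with the replicate number as a block, limma). The Macroh2a2 probe set gave 6.1 and 7.5 units on the control arrays, 3.5 and 2 on the macroH2A1 shRNA arrays and 11.9 and 8.3 on the macroH2A2 shRNA arrays. Its mean signal was below the level needed for a test, so knockdown of Macroh2a2 could not be checked. Below, both macroH2A shRNA lines are called knockdown lines by their hairpins only. Melanocytic marker genes summed to between 36419 and 46398 units an array, and 7 leukocyte markers to between 63.9 and 89.7, 6 fibroblast markers to between 104.3 and 181.7, 4 endothelial markers to between 24.7 and 43.3 and 4 keratinocyte markers to between 24 and 36.5. Of these 21 markers of other cell types, Csf1r, Col1a2, Pdgfra and Krt5 alone exceeded a mean of 20 units.

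Differences are given on the scale of log2(signal + 16), which understates the change of dim probe sets. They were tested with limma over the 27025 probe sets whose mean signal was at least 10.4 units, with Benjamini-Hochberg adjustment over all of them and a threshold of 0.05. Of the 40 genes, 39 passed that limit. The exception was Srsf12, an SR protein gene whose single probe set gave 0.2 to 4.7 units. The labels call the replicates biological and do not say whether they came from separate cultures. The p-values therefore measure only the spread between these samples.

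No SR, hnRNP or SF3 gene, nor Qk or Rbfox2, passed the threshold in either knockdown line. Without the block, 0 of 39 members and 0% of all probe sets were called in each of the comparisons between lines. With the replicate number as a block, the members called remained 0, beside 52 probe sets (0.192%) in macroH2A1 shRNA against control, 39 (0.144%) in macroH2A2 shRNA against control, 84 (0.311%) for the mean of both lines against control, and 1 (0.0037%) between the knockdown lines. At an unadjusted p under 0.05, 3 members were higher and 0 lower in the macroH2A1 shRNA line, and 2 were higher and 1 lower in the macroH2A2 shRNA line. All tested genes gave 2.41% higher and 3.11% lower in the former, and 1.84% higher and 3.33% lower in the latter. With the block, 4 members were higher and 1 lower in the macroH2A1 shRNA line, and 3 were higher and 1 lower in the macroH2A2 shRNA line. Of all 12088 tested genes, 531 were then higher and 655 lower in the former, and 454 higher and 776 lower in the latter.

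The differences were small. All 39 members lay within 1.5-fold of control in both lines, as did 96.7% and 96.4% of the 12088 genes tested. The 95% interval of the difference stayed within 1.5-fold for 33 members in macroH2A1 shRNA and 32 in macroH2A2 shRNA cells, so changes of that size were within the interval of the remaining 6 and 7. Both comparisons share the same 2 control arrays.

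**Figure D1:**
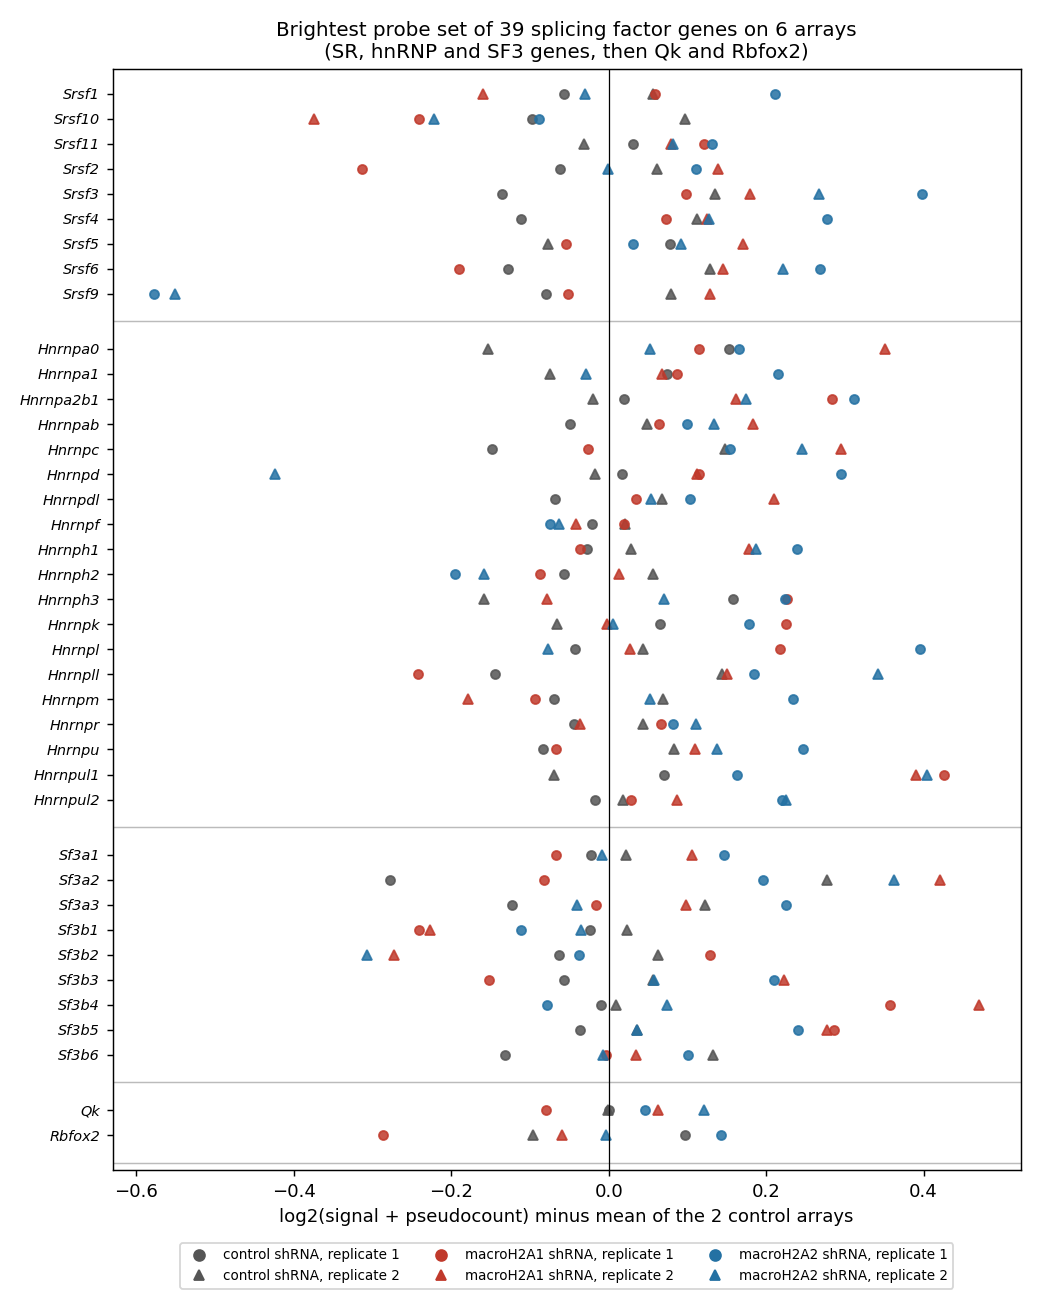
Each row is the brightest probe set of 1 of 39 splicing factor genes, and each symbol is 1 array, placed by its log2(signal + 16) minus the mean of the 2 control arrays (horizontal axis, log2 units); colours are shRNA lines, circles replicate 1 and triangles replicate 2. Blue symbols of the macroH2A2 shRNA line lie right of both control arrays in 16 genes (all genes, 15%) and left of both in 4 (all genes, 18.4%). The pair for Srsf9 lies farthest left, with a mean difference of -0.56.

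Among the 9 tested SR genes, 5 were above and 4 below control in the macroH2A1 shRNA line, with a median log2 difference of 0.039. In the macroH2A2 shRNA line 7 were above and 2 below, with a median of 0.091. Srsf9, a close relative of the enhancer-binding factor Srsf1, gave 1551.3 and 1732.9 units on the control arrays, 1581.9 and 1794.9 on the macroH2A1 shRNA arrays, and 1093.5 and 1114.7 on the macroH2A2 shRNA arrays. Both macroH2A2 shRNA arrays lay below all other arrays, and the control and macroH2A1 shRNA arrays overlapped.

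The log2 difference of Srsf9 from control was -0.56 ± 0.13 (SE) in the macroH2A2 shRNA line, a factor of 1.48, with an adjusted p of 0.731 (limma) and 0.105 with the block. Against the macroH2A1 shRNA line it was -0.60 ± 0.13, a factor of 1.52, with an adjusted p of 1 (limma) and 0.183 with the block. Neither passed the threshold. With the block and without macroH2A2 shRNA replicate 1, the second difference passed, at -0.67 (adjusted p = 0.040, limma). Over the 6 blocked fits that each left out 1 array, its adjusted p ran from 0.040 to 1 (limma) and that of the first difference from 0.058 to 0.413. In the first comparison 4.01% of all tested genes had a larger difference in either direction, and in the second 1.83%. Srsf9 has 1 probe set on the array, so no second probe set bears on this value.

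Srsf3, the smallest SR protein, gave 2341.7 and 2827.6 units in control, 2756.5 and 2916 in macroH2A1 shRNA and 3394.9 and 3100.2 in macroH2A2 shRNA cells. The macroH2A2 shRNA arrays lay above those of both other lines, with a log2 difference from control of 0.33 ± 0.13 (SE; adjusted p = 1, limma). Its 5 other probe sets gave between -0.27 and 0.26 in that comparison. Srsf6, another enhancer-binding SR protein, was 1979.9 and 2368 in control, 1896.1 and 2396.2 in macroH2A1 shRNA and 2611.5 and 2526.5 in macroH2A2 shRNA cells. Its difference between the knockdown lines, 0.27 on the log2 scale, did not pass the threshold and was -0.012 when the log2 values of all its tested probe sets were averaged.

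Srsf10, an SR-like protein known as a splicing repressor in its dephosphorylated form, was 985.1 and 1129 in control, 890.4 and 810.1 in macroH2A1 shRNA and 991.3 and 902 in macroH2A2 shRNA cells. The macroH2A1 shRNA arrays were lowest, at a log2 difference of -0.31 from control (adjusted p = 1, limma; 0.055 before adjustment). Its 3 other tested probe sets gave between -0.08 and 0.07 there, and the mean of all 4 was -0.098. On its brightest probe set, the general splicing factor Srsf1 differed from control by -0.05 and 0.09 in the macroH2A1 and macroH2A2 shRNA lines. That of the nuclear speckle protein Srsf2 differed by -0.09 and 0.06. For the brightest probe sets of these 2 genes and of Srsf5, the arrays of both knockdown lines overlapped those of control. The 6 tested Srsf1 probe sets ran from -0.30 to 0.10 in macroH2A1 shRNA and from 0.02 to 0.35 in macroH2A2 shRNA cells. The 4 tested Srsf2 probe sets ran from -0.10 to -0.01 and from -0.48 to 0.06 in the same lines.

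**Figure D2:**
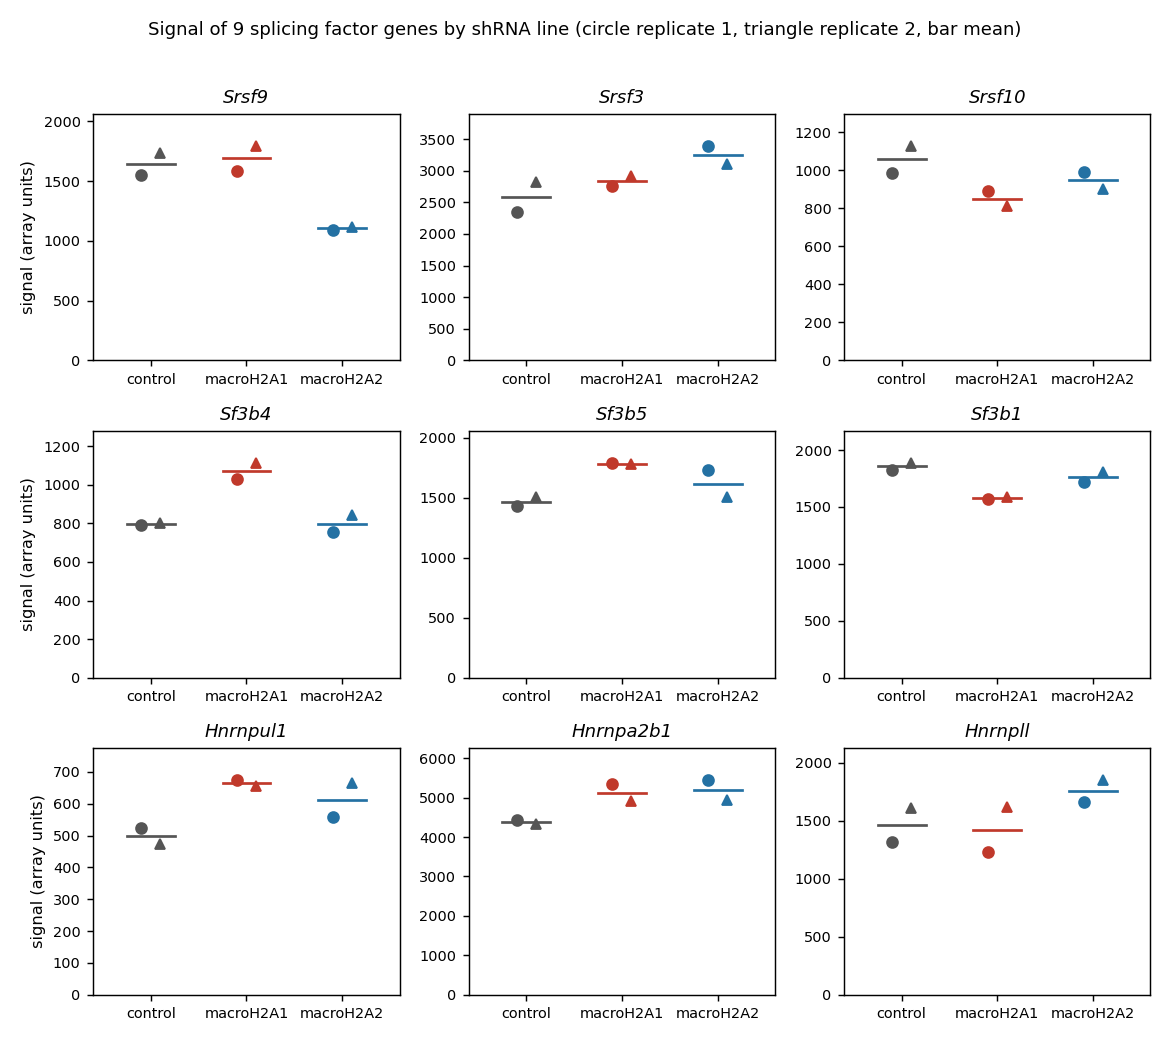
Signal in array units (vertical axes, from 0) of 9 splicing factor genes by shRNA line (horizontal axes); circles are replicate 1, triangles replicate 2 and bars the mean of 2 arrays. Srsf9 is lowest on the macroH2A2 shRNA arrays, at 1093.5 and 1114.7, and Sf3b4 is highest on the macroH2A1 shRNA arrays, at 1028.5 and 1113.6.

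Of the 9 SF3 genes, 7 lay above control in macroH2A1 shRNA cells, with a median log2 difference of 0.036, and 6 in macroH2A2 shRNA cells, with a median of 0.069. Sf3b4, the SF3b subunit that contacts RNA near the branch site, gave 793.9 and 804.4 units on the control arrays, 1028.5 and 1113.6 on the macroH2A1 shRNA arrays and 756.4 and 841.9 on the macroH2A2 shRNA arrays. Both macroH2A1 shRNA arrays lay above all others. The log2 difference was 0.41 ± 0.13 (SE) from control, a factor of 1.33, and -0.42 ± 0.13 from macroH2A1 to macroH2A2 shRNA cells. Their p-values of 0.013 and 0.012 became 0.907 and 1 after adjustment (limma), and 0.291 and 0.538 with the block. The second Sf3b4 probe set was dimmer, with 126.3 and 115.6, 106 and 96, and 97.8 and 113.2 units in control, macroH2A1 and macroH2A2 shRNA cells. It did not repeat the pattern, since its difference between macroH2A1 shRNA and control was -0.23.

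Sf3b5, the smallest SF3b subunit, was 1429.5 and 1503.3 in control, 1791.1 and 1779.4 in macroH2A1 shRNA and 1735.4 and 1503.7 in macroH2A2 shRNA cells. The macroH2A1 shRNA arrays were above the rest, at a log2 difference of 0.28 ± 0.12 (SE; adjusted p = 1, limma) from control, and its other tested probe set gave 0.29. Sf3b1, the large SF3b subunit that is mutated in some melanomas and leukaemias, was 1827.2 and 1887.1 in control, 1568.3 and 1584.7 in macroH2A1 shRNA and 1718.5 and 1811.1 in macroH2A2 shRNA cells. All 4 knockdown arrays were below both control arrays, with log2 differences of -0.23 and -0.07 that did not pass the threshold. Its 4 tested probe sets all lay below control in both lines. They ran from -0.27 to -0.11 in macroH2A1 shRNA and from -0.46 to -0.07 in macroH2A2 shRNA cells. On their brightest probe sets, the 3 SF3a genes differed from control by 0.02 to 0.28 in both lines. On these probe sets no SF3a gene had both arrays of a knockdown line above, or both below, the 2 control arrays. Over all tested probe sets, Sf3a1 ran from 0.02 to 0.50 in macroH2A1 shRNA and Sf3a2 from 0.28 to 0.42 in macroH2A2 shRNA cells. The tested Sf3a3 probe sets differed in sign, from -0.09 to 0.04 in macroH2A1 shRNA and from -0.06 to 0.09 in macroH2A2 shRNA cells.

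Of the 19 hnRNP genes, 15 lay above control in macroH2A1 shRNA and 16 in macroH2A2 shRNA cells, with median log2 differences of 0.077 and 0.144. Hnrnpul1, a relative of the nuclear matrix protein Hnrnpu, gave 522.8 and 473.1 units in control, 673.9 and 656.7 in macroH2A1 shRNA and 558.8 and 663.4 in macroH2A2 shRNA cells. All 4 knockdown arrays lay above both control arrays, by 0.41 ± 0.15 and 0.28 ± 0.15 on the log2 scale (SE; adjusted p = 1 in both, limma). This gene has 1 probe set.

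Hnrnpa2b1, which binds exonic silencers and also carries RNA in the cytoplasm, was 4440.9 and 4320.5 in control, 5336.8 and 4902.5 in macroH2A1 shRNA and 5440.8 and 4945.4 in macroH2A2 shRNA cells. The 4 knockdown arrays were again above control, with log2 differences of 0.22 and 0.24, neither of which passed. Its other probe sets disagreed. One gave 4470.2 and 3831.8, 3540.1 and 2127.8, and 4396.3 and 2481.7 units in the 3 lines, a log2 difference of -0.59 in macroH2A1 shRNA cells. The remaining 2 gave -0.30 and 0.016 there.

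Of the 3 hnRNP genes below control in the macroH2A2 shRNA line, Hnrnph2 and Hnrnpf, which bind runs of G, had both arrays below. The third was Hnrnpd, an AU-rich element binding protein, with 1297.5 and 1267.2 units in control and 1577.2 and 952.2 in macroH2A2 shRNA cells. This was a log2 difference of -0.06 with the arrays on either side of control. Its 3 tested probe sets ran from -0.47 to -0.06 in that comparison, and from -0.70 to -0.13 in macroH2A2 against macroH2A1 shRNA cells. Hnrnph2 was 1011.8 and 1095.4 in control, 990.3 and 1062.6 in macroH2A1 shRNA and 917.7 and 941.7 in macroH2A2 shRNA cells, and Hnrnpf was 5169.1 and 5321.1, 5315.7 and 5093.9, and 4979.1 and 5020.2. Their macroH2A2 shRNA arrays lay below those of both other lines, by -0.18 and -0.07 from control on the log2 scale, and neither passed the threshold. For Hnrnpf the sign rested on the scaling, since centring each array on its median gave 0.0012.

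Between the knockdown lines, Hnrnpm and Hnrnpll had higher signals on both macroH2A2 than on both macroH2A1 shRNA arrays. Hnrnpm, a splicing regulator of epithelial and mesenchymal isoforms, was 1116.7 and 1230.1 in control, 1097.7 and 1034.1 in macroH2A1 shRNA and 1381.9 and 1216 in macroH2A2 shRNA cells. Hnrnpll, known from exon skipping in lymphocytes, was 1317.8 and 1611.9, 1229.5 and 1619.9, and 1658.4 and 1851.1. The differences of 0.28 and 0.31 on the log2 scale (adjusted p = 1 in both, limma) did not pass, and the second Hnrnpll probe set gave 0.09.

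Qk gave 1820.2 and 1819.1 units on the control arrays, 1721.6 and 1901.2 on the macroH2A1 shRNA arrays, and 1879.9 and 1980.1 on the macroH2A2 shRNA arrays. The macroH2A1 shRNA arrays lay on either side of control, and both macroH2A2 shRNA arrays lay just above it. The log2 differences were -0.0082 (95% interval -0.27 to 0.25) and 0.084 (95% interval -0.18 to 0.35). Of the 6 tested Qk probe sets, 1 lay below control on both macroH2A1 shRNA arrays, with 657.8 and 567.2 units in control, 529.1 and 382.7 in macroH2A1 shRNA and 650.9 and 596.7 in macroH2A2 shRNA cells. Its log2 difference of -0.43 had a p of 0.048 before and 1 after adjustment (limma; 0.360 with the block). Another Qk probe set went the other way, with 104.1 and 79 units in control, 117.2 and 110 in macroH2A1 shRNA and 90.1 and 76.8 in macroH2A2 shRNA cells, a difference of 0.28 in the macroH2A1 shRNA line.

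Rbfox2 was dim on this array, with 70.3 and 59.5 units in control, 50.2 and 61.5 in macroH2A1 shRNA and 73.1 and 64.5 in macroH2A2 shRNA cells. Its log2 differences from control were -0.17 (95% interval -0.65 to 0.31) and 0.07 (95% interval -0.41 to 0.55). Knockdown and control arrays overlapped in both lines. A 1.5-fold decrease lay within the first interval, and not within the second. These values are those of the brightest Rbfox2 probe set. The 4 tested Rbfox2 probe sets ran from -0.17 to -0.03 in macroH2A1 shRNA and from -0.07 to 0.22 in macroH2A2 shRNA cells.

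Over the whole set, 27 of 39 members lay above control in macroH2A1 shRNA and 31 in macroH2A2 shRNA cells, where 48.2% and 47.5% of all tested genes did. The median log2 differences were 0.057 and 0.096, beside -0.0098 and -0.013 over all genes. In the macroH2A1 shRNA line both arrays lay above both control arrays for 8 members (all genes, 15.2%) and below for 3 (all genes, 16.8%). In the macroH2A2 shRNA line the counts were 16 above (all genes, 15%) and 4 below (all genes, 18.4%).

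Signal level moved with these counts. Of the 1477 tested genes with a mean signal of at least 1000 units, 68.7% lay above control in the macroH2A2 shRNA line and 26.4% had non-overlapping higher arrays, with a median log2 difference of 0.067. Of the 28 members in that range, 22 lay above control (78.6%) and 12 had non-overlapping higher arrays (42.9%), with a median of 0.095. In the macroH2A1 shRNA line 18 of these 28 members (64.3%) and 69.5% of the bright genes lay above control. The part of the signal level in the members' medians was not tested further.

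The macroH2A1 shRNA median depended on the control arrays and the scaling: it was -0.012 without control replicate 1, 0.092 without control replicate 2, and 0.0071 after quantile normalization. The macroH2A2 shRNA median stayed above 0 in the alternatives run, from 0.029 with all tested probe sets of a gene averaged to 0.166 with arrays centred on their medians.

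Other genes of the splicing machinery, from 6 lists of related factors, gave the same low counts. Without the block, 0 genes of any list were called in a comparison between lines. With the block, 1 of 23 other hnRNP-type RNA-binding proteins was called in macroH2A1 shRNA against control (all genes, 0.273%) and in the mean of both lines against control (all genes, 0.397%), and none of 24 SR-related proteins and SR kinases, 20 partners at the U2 site, 38 other spliceosome components, 21 tissue-specific or auxiliary regulators and 7 exon junction or decay factors. The lists' medians ranged from -0.045 to 0.056 in that comparison and from -0.0077 to 0.112 in macroH2A2 shRNA against control.

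The gene called in both was Ptbp2, the neuronal paralogue of the polypyrimidine tract binding protein Ptbp1, which represses exons. Ptbp2 gave 215.4 and 237.8 units in control, 511.4 and 797.2 in macroH2A1 shRNA and 287.6 and 278.1 in macroH2A2 shRNA cells. Both macroH2A1 shRNA arrays lay far above all others, and the macroH2A2 shRNA arrays lay slightly above control. The log2 difference from control was 1.43 ± 0.21 (SE) in macroH2A1 shRNA cells, with an adjusted p of 0.307 without and 0.0101 with the block (limma). With the block it lay between 1.14 and 1.72 and passed under 8 of 12 alternatives. For the mean of both lines the difference was 0.87 (adjusted p = 0.579 without and 0.046 with the block, limma). A second, dimmer Ptbp2 probe set had 22 and 6.4 units in control and 37 and 27.8 in macroH2A1 shRNA cells, a log2 difference of 0.72. The difference between the knockdown lines was -1.13 (adjusted p = 1 without and 0.135 with the block, limma).

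Ptbp1 and Ptbp3, looked at after the value of Ptbp2 was seen, did not share its pattern. Ptbp1 was 1491.9 and 1523.4 in control, 1342.5 and 1210.2 in macroH2A1 shRNA and 1989.8 and 1547 in macroH2A2 shRNA cells, with log2 differences of -0.24 and 0.22. Ptbp3 was 931.6 and 978.4, 887.8 and 914.3, and 745.5 and 858.6, with differences of -0.08 and -0.25. The 2 other Ptbp3 probe sets were dimmer and lower on both macroH2A1 shRNA arrays, with 89.5 and 115.1 units in control against 68.8 and 59.6, and 42.8 and 52.8 against 27.2 and 18.9. Their differences there were -0.55 and -0.71, and those in macroH2A2 shRNA cells -0.26 and -0.04. The 2 other Ptbp1 probe sets gave 0.15 and -0.18 in macroH2A1 shRNA cells. None of these passed the threshold, with or without the block.

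**Figure D3:**
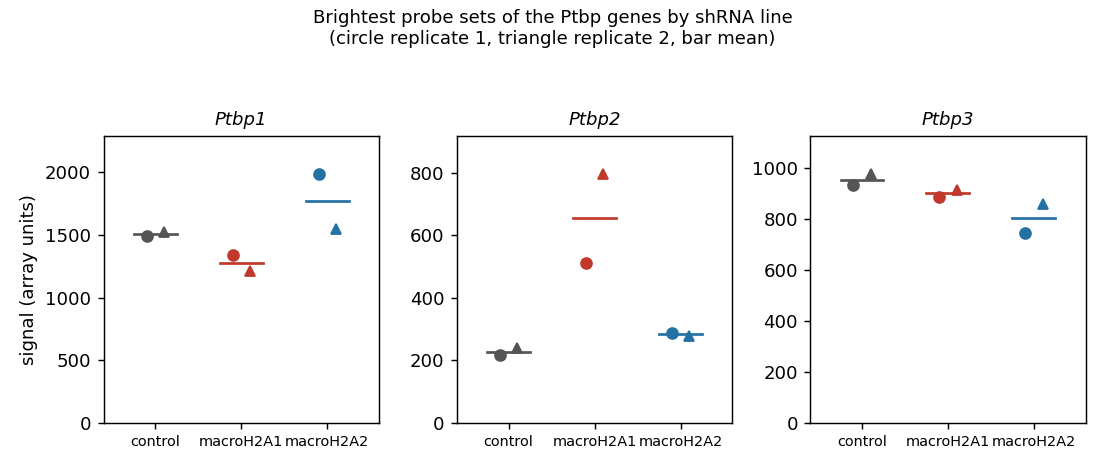
Signal in array units (vertical axes, from 0) of the brightest probe sets of Ptbp1, Ptbp2 and Ptbp3 by shRNA line (horizontal axes); circles are replicate 1, triangles replicate 2 and bars the mean of 2 arrays. Ptbp2 reaches 511.4 and 797.2 in the macroH2A1 shRNA line, where control has 215.4 and 237.8.

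Among the auxiliary regulators, Mbnl1 and Celf1, which bind CUG-rich and GU-rich RNA, had the smallest p-values in macroH2A1 shRNA, and in the mean of both lines, against control. Mbnl1 gave 1553 and 1876.3 units in control, 2100.7 and 2184.3 in macroH2A1 shRNA and 2362.6 and 2411.4 in macroH2A2 shRNA cells. Celf1 gave 2356 and 2543.8, 2990.2 and 3446.3, and 2834.1 and 3062. On these brightest probe sets all 4 knockdown arrays lay above both control arrays. The 2 other Mbnl1 probe sets, at most 57.2 units, gave -0.35 and -0.44 in macroH2A1 shRNA cells, and the 4 other Celf1 probe sets ran from -0.41 to 0.27. The differences of the mean of both lines from control, 0.40 for Mbnl1 and 0.33 for Celf1 on the log2 scale, did not pass the threshold (adjusted p = 0.727 and 0.869, limma; 0.144 and 0.178 with the block). In macroH2A2 shRNA against control, Mbnl1 and Celf5, a relative of Celf1, had the smallest p-values. Celf5 was dim, with 25.7 and 14.2 units in control, 10.6 and 11.9 in macroH2A1 shRNA and 5.7 and 3 in macroH2A2 shRNA cells, and its log2 difference of -0.81 in macroH2A2 shRNA cells did not pass (adjusted p = 1, limma).

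More splicing factor probe sets were called between the replicate numbers (17) than between the shRNA lines (0 without the block). The same held for all tested probe sets, with 2661 and 0 called. The counts are not of equal power. The replicate comparison set 3 arrays against 3 with the line in the fit, and a comparison of 2 lines set 2 against 2. Replicate set 1 is the replicate 1 array of each of the 3 lines and set 2 the replicate 2 arrays, compared after the line means had been taken out. Among brightest probe sets, 1 of 39 members was called, beside 3.52% of all genes. This was Sf3a2, an SF3a subunit, with 732.3 and 1083.4 units in control, 841.1 and 1198.3 in macroH2A1 shRNA and 1023.3 and 1150.1 in macroH2A2 shRNA cells. It was lower on the replicate 1 array of every line, by -0.41 ± 0.11 (SE) on the log2 scale (adjusted p = 0.041, limma). The call was lost in 9 of 13 alternatives, and the second Sf3a2 probe set, at 37.5 to 68.8 units, gave a difference of 0.17.

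The median log2 difference over the 39 was -0.033, beside 0.0014 over all genes. The direction differed between lines: 11 of 39 members were higher on the replicate 1 array in control, 15 in macroH2A1 shRNA and 25 in macroH2A2 shRNA cells. Of all 12088 tested genes, 6574, 5945 and 5542 were higher there in the same 3 lines. In 15 of 39 members the sign was the same in all 3 lines, beside 4523 of the 12088 genes. Of those not overlapping between the sets, Hnrnpk, a poly(C)-binding hnRNP, was 4713.6, 5267.4 and 5096.3 on the replicate 1 arrays and 4303.5, 4498.8 and 4520.2 on the replicate 2 arrays. Its difference of 0.18 did not pass the threshold (adjusted p = 0.166, limma).

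The other probe sets of the same genes stood apart. The 40 genes have 132 probe sets, 125 of which were tested. Of these, 17 (13.6%) were called between the replicate sets, beside 9.85% of all tested probe sets: 15 higher (all probe sets, 8.75%) and 2 lower (all probe sets, 1.1%) in set 1. The 17 lie in 13 genes, and 16 of them are not the brightest of their gene. In the 30 members with at least 2 tested probe sets, 1 of 30 brightest (3.33%) and 16 of 86 others (18.6%) were called, beside 4.34% and 10.5% in the same classes over all genes. All 15 called higher in set 1 were higher on the replicate 1 array of each line, an agreement that choosing them by this difference favours.

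**Figure D4:**
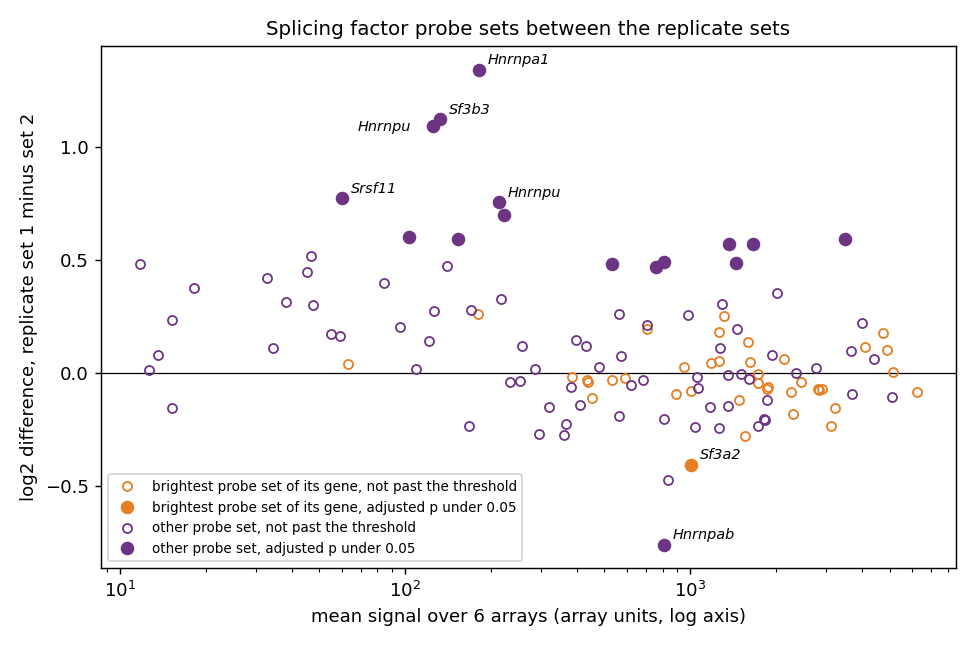
Each point is 1 of 125 tested splicing factor probe sets, by mean signal over 6 arrays (horizontal axis, array units, log scale) and log2 difference of replicate set 1 minus set 2 (vertical axis); filled points have an adjusted p under 0.05. Of the 17 filled points, 16 are other than the brightest probe set of their gene, and 15 lie above 0, up to 1.34 for Hnrnpa1.

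The largest of these differences was in Hnrnpa1, a shuttling hnRNP that binds exonic and intronic silencers. One probe set gave 246.7, 257.5 and 297.2 units on the replicate 1 arrays of control, macroH2A1 and macroH2A2 shRNA cells, and 110.3, 96.4 and 81.3 on the replicate 2 arrays. The sets did not overlap, and the log2 difference was 1.34 ± 0.15 (SE; adjusted p = 0.0013, limma). The brightest Hnrnpa1 probe set, with 1604, 1617.9 and 1770.4 units in set 1 and 1445.6, 1596.7 and 1492.7 in set 2, gave 0.14 and did not pass.

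Sf3b3, a large subunit of SF3b, showed the same contrast between its 2 probe sets. The dimmer one gave 235.9, 171.3 and 156.7 units in set 1 and 77.9, 73.3 and 78.2 in set 2, a log2 difference of 1.12 ± 0.15 (SE; adjusted p = 0.0020, limma). The brighter one gave 413.5, 386.1 and 500.9 units in set 1 and 448.6, 505.5 and 448.7 in set 2, a difference of -0.11.

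Hnrnpu, which binds chromatin-associated RNA, had 2 called probe sets of 5. They gave 194.4, 172.3 and 165 units in set 1 against 75.2, 74.1 and 73.8 in set 2, and 300.8, 285.1 and 231.4 against 165.6, 143.9 and 153.1. The log2 differences were 1.09 and 0.75 (adjusted p = 0.0016 and 0.0057, limma), whereas the brightest Hnrnpu probe set gave -0.08. Qk had 1 called probe set of 6, with 146, 127.8 and 110.5 units in set 1 and 78.9, 77.9 and 78.6 in set 2, a difference of 0.60 (adjusted p = 0.021, limma). Its brightest probe set gave -0.07.

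**Figure D5:**
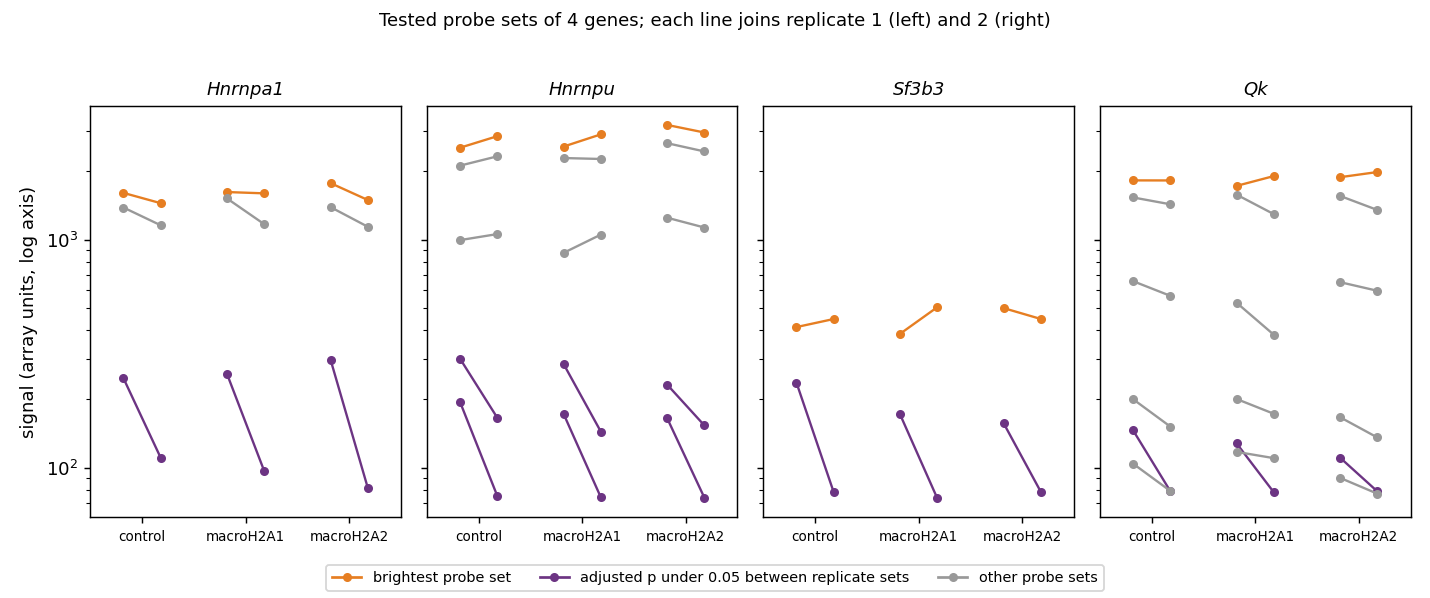
Signal in array units (vertical axis, log scale) of the tested probe sets of Hnrnpa1, Hnrnpu, Sf3b3 and Qk; each line joins the replicate 1 (left) and replicate 2 (right) array of 1 shRNA line. The probe sets with an adjusted p under 0.05, chosen by the difference shown, slope down in all 3 lines, such as Hnrnpa1 from 246.7 to 110.3 in control. The brightest probe sets of these genes did not pass the threshold.

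The opposite direction appeared in Hnrnpab, an hnRNP of the A/B family. One of its 7 probe sets gave 587.3, 652.3 and 533.9 units in set 1 and 909, 1281.3 and 883.2 in set 2, a log2 difference of -0.76 ± 0.11 (SE; adjusted p = 0.0030, limma). Bright probe sets were among the calls too. One Hnrnpr probe set gave 1957, 1975.9 and 2040.2 units in set 1 and 1424.5, 1263.9 and 1325.6 in set 2, and 1 Sf3b1 probe set gave 1633.3, 1641.3 and 1613.1 against 1303.6, 919.4 and 1088.4. Both differences were 0.57 on the log2 scale, and the sets did not overlap.

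Probe sets of 1 gene disagreed more between the replicate sets than between the lines. In the replicate comparison the probe sets of a gene spread by over 0.5 on the log2 scale in 15 of 30 member genes (50%), beside 25.9% of all genes with several tested probe sets. In macroH2A1 shRNA against control this held for 4 of the 30 (13.3%), beside 11%, and in macroH2A2 shRNA against control for 3 (10%), beside 12.4%. Members have more probe sets than most genes, so these shares are descriptions.

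Values of array quality moved with the replicate number. Array medians were 24.6, 20.6 and 19.5 units for the replicate 1 arrays and 15.1, 15.4 and 16.2 for the replicate 2 arrays. The 18S ribosomal RNA probe sets were higher on the replicate 1 arrays, by a median log2 difference of 0.59, 0.52 and 0.54 in the 3 lines. Probe sets under 50 units had a median difference of 0.20 between the sets and 14.1% calls, and those of at least 1000 units a median of -0.06 and 5.88% calls. Of the member probe sets, 0 of 12 under 50 units (all, 14.1%) and 6 of 18 from 50 to 200 units (all, 9.29%) were called. From 200 to 1000 units 6 of 38 were called (all, 5.19%), and of at least 1000 units 5 of 57 (all, 5.88%). Ratios of 3′ to 5′ control probe sets did not separate the sets, at 0.81 to 0.84 for Gapdh and 1.24 to 1.28 for Actb. The part of these in the member calls was not tested.

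The count of called member probe sets ran from 9 without either macroH2A1 shRNA array to 26 without either macroH2A2 shRNA array, and was 6 with no filter on signal. Of the 17, 6 were called under each of 12 alternatives: 1 each of Hnrnpa1, Hnrnpab, Hnrnpr and Sf3b3, and 2 of Hnrnpu.

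Of the 133 tested genes of the 6 lists, 6 (4.51%) were called between the replicate sets, beside 3.52% of all genes: Taf15, Cirbp and Rbmx, Ddx23, Sf1 and Ddx5. Of each list, the called genes among its 2 smallest p-values follow. Taf15, an RNA-binding protein of the FET family, gave 358.7, 234.5 and 201.2 units on the replicate 1 arrays and 106.7, 64.4 and 122.2 on the replicate 2 arrays, a log2 difference of 1.3 (adjusted p = 0.0028, limma). The cold-inducible protein Cirbp gave 435.4, 408.5 and 271.9 against 238, 252.5 and 163.1, and the spliceosomal helicase Ddx23 gave 61, 51.8 and 54.1 against 24.6, 14.5 and 24.9. The branch point binding protein Sf1 went the other way, with 2366.7, 2596.1 and 2932 against 3253.4, 4252.5 and 3833.3, a difference of -0.52 (adjusted p = 0.0053, limma). The helicase Ddx5 gave 4683.8, 5030.8 and 5277.9 against 4100.2, 4037 and 4103.4, a difference of 0.29 (adjusted p = 0.035, limma). In each of these 5 genes, chosen by the same difference, the sets did not overlap. The second Taf15 probe set gave 0.96, the second Ddx23 probe set 0.16, the 4 other Sf1 probe sets -0.23 to 0.13 and the 5 other Ddx5 probe sets 0.03 to 0.59.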

How the data were processed

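RNA of 6 samples, 2 of each of 3 shRNA lines of B16-F1 cells, was measured on Affymetrix 3′ expression arrays with 45101 probe sets. Per the labels, 150 ng of total RNA was amplified with a poly(dT) primer, which reads transcripts near their 3′ ends. The values are signal intensity on a linear scale as deposited by the authors, and the submitters' processing notes name MAS5 (version not given in the sources used here). Every column was mapped to a sample, and genes came from the platform annotation: 34945 probe sets with 1 symbol, 932 with several (not used to represent a gene) and 9160 with none. All 40 member symbols matched RefSeq.

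Intensities were converted to log2(signal + 16). The 27025 probe sets with a mean of at least 10.4 units, the 40th percentile, were fitted in limma 3.58.1 (R 4.3.3) with a variance trend, over all 6 arrays, with no block in the comparisons between lines. p-values are two-sided and adjusted by Benjamini-Hochberg over all tested probe sets. The scripts were tested on simulated data. The labels do not say that the replicate numbers pair the samples. In the data, the replicate differences of the lines correlated over probe sets with r = 0.58, 0.37 and 0.42. Array medians also differed between the replicate numbers, and whether these numbers mark shared cultures or batches was not tested. The blocked fit is given where it changes a call or a count of calls, and for the members' counts at an unadjusted p. The replicate comparison used the additive fit with line.

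Named members were, for each comparison, those past the threshold (at most 6 in each direction) or, where fewer than 3 passed in a direction, the 3 with the smallest p in that direction among members whose arrays did not overlap, with Qk and Rbfox2 always. Of each list of related genes, the 2 with the smallest p could be named. Members, lists and alternatives were chosen with earlier results of these data known. Alternatives changed the filter, pseudocount, normalization, trend, block, probe set rule and arrays.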

Additional observations from a re-analysis of the deposited data

Results flagged for a closer look

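One splicing factor probe set had the arrays of the knockdown lines on opposite sides of both control arrays. It belongs to Sf3b6, the small SF3b subunit at the branch site, and gave 13.1 and 11.3 units in control, 19.6 and 14.8 in macroH2A1 shRNA and 6.4 and 10.8 in macroH2A2 shRNA cells. Its log2 differences from control were 0.23 and -0.20, and the difference between the knockdown lines, -0.43, did not pass the threshold (adjusted p = 1, limma). This is 1 of 125 tested member probe sets (0.8%), beside 1.51% of all tested probe sets. The brightest Sf3b6 probe set gave 0.02 and 0.05. With 2 arrays a line, no single array could be compared with its own group.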

How the results depend on the processing

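Between lines, the count of members called was 0 in the chosen fits and in all alternatives but 1: between the knockdown lines it was 1, Srsf9, with the replicate block and without macroH2A2 shRNA replicate 1. The replicate block raised the probe sets called from 0 to 52 for macroH2A1 shRNA, 39 for macroH2A2 shRNA, 84 for the mean of both lines and 1 between the lines, and changed no member's call otherwise. Left-out arrays gave 0 in each of these comparisons without the block.

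The members' median in macroH2A1 shRNA against control, 0.057, was 0.0071 after quantile normalization, 0.110 with median centring and 0.032 with all probe sets of a gene averaged, and ran from -0.012 to 0.110 with 1 array left out. That of the mean of both lines, 0.101, was 0.040, 0.162 and 0.020 under the same settings, and from 0.032 to 0.123 with 1 array left out. With 1 array left out, the median ran from 0.054 to 0.166 in macroH2A2 shRNA against control, 0.010 to 0.123 between the knockdown lines and -0.047 to -0.021 between the replicate sets. Higher non-overlapping members in macroH2A2 shRNA against control numbered 12 after quantile normalization and 19 with median centring, beside 17.4% and 19.2% of all genes.

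Between replicate sets, 2661 probe sets were called, against 301 with no filter, 1182 with the 60th percentile filter, 1089 after quantile normalization and 1320 to 3942 with 1 array left out. The member count of 1 was 0 with no filter, the 60th percentile filter, quantile normalization or no variance trend, and 0 to 3 with 1 array left out. The 17 member probe sets were 6 with no filter, 9 with median centring, 10 with no trend and 9 to 26 with 1 array left out. These alternatives for member probe sets, for Ptbp2 and for non-overlapping arrays were chosen after seeing the data. Where leaving out an array left a line with 1 sample, it was assumed to vary like the other lines. The causes of these shifts were not tested.

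Signs turned for values that were not called. In macroH2A1 shRNA, Qk was 0.045 with median centring and -0.079 to 0.063 with 1 array left out. In macroH2A2 shRNA, Hnrnpf was 0.0012 with median centring, Rbfox2 -0.027 to 0.166 with 1 array left out (-0.0039 without macroH2A2 shRNA replicate 1), and, with probe sets averaged, Qk -0.066 and Hnrnpa2b1 -0.036. For the mean of both lines, Qk was -0.0081 after quantile normalization and -0.051 averaged, Hnrnpa2b1 -0.099 averaged, and Rbfox2 0.025 (quantile), 0.010 (centring), and -0.148 to 0.045 with 1 array left out (0.0053 without macroH2A1 shRNA replicate 1). Between the lines, averaging gave Qk -0.030 and Srsf6 -0.012. Between replicate sets, Qk was 0.244 averaged, and Rbfox2 -0.135 (quantile), -0.062 (centring), -0.040 to 0.170 with 1 array left out (-0.017 without either macroH2A2 shRNA array).

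With 2 arrays a line, intervals stay wide, such as, for the dim Rbfox2 in macroH2A1 shRNA against control, -0.65 to 0.31 on the log2 scale.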

Other observations

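Hnrnpa3, of the hnRNP A/B family, was not a member because it is named here only beside another symbol. It shares 4 probe sets with the annotated locus Gm6793, and signal from the 2 cannot be told apart on them. The brightest of these gave 3780.4 and 3838.8 units in control, 4361.6 and 4084 in macroH2A1 shRNA and 4555 and 3994.1 in macroH2A2 shRNA cells, with log2 differences from control of 0.15 and 0.16 that did not pass the threshold. On this probe set all 4 knockdown arrays lay above both control arrays. The others gave 0.18, 0.19 and 0.04 in macroH2A1 shRNA, and 0.10, -0.03 and -0.18 in macroH2A2 shRNA cells. Another of the 4 gave 2297.9, 2156.6 and 2016.4 units on the replicate 1 arrays and 1724.9, 1933.4 and 1532.5 on the replicate 2 arrays, a log2 difference of 0.32 that did not pass the threshold (adjusted p = 0.053, limma).

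Hnrnpa1 shares 3 further probe sets with loci annotated as Hnrnpa1l2-ps2, Gm10052 and Gm5643. One of these gave 2786.4, 2859.1 and 2938.8 units on the replicate 1 arrays and 2625.7, 2127.5 and 2267 on the replicate 2 arrays, a log2 difference of 0.29 (adjusted p = 0.074, limma), beside 1.34 for the dim Hnrnpa1 probe set that was called. Hnrnpa1 has near-identical copies in the genome, so its values here are uncertain where probes match a copy.

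Neither Hnrnpa1 nor Hnrnpa3 probe sets with several symbols were called in a comparison between lines.

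The exon junction and nonsense-mediated decay list had 0 of 7 tested genes above control in macroH2A1 shRNA cells and 6 of 7 in macroH2A2 shRNA cells. The differences in macroH2A1 shRNA cells lay between -0.09 and -0.01 on the log2 scale, and none of the 7 was called.

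Some Affymetrix suffixes (_a_at, _s_at, _x_at) mark probes that match several transcripts or may cross-hybridise. Of 64 tested member probe sets without them, 9 were called higher in replicate set 1, beside 10.3% of all such probe sets. Called higher were 1 of 28 ending in _a_at (all, 2.38%), 2 of 18 ending in _s_at (all, 2.53%) and 3 of 15 ending in _x_at (all, 8.55%). The 2 called lower were 1 of the 64 (all, 0.919%) and 1 of the 18 (all, 1.85%).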
